A study of Mus musculus with 18 samples.

Results

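The proteases and inhibitors described here are the matrix metalloproteinases (MMPs), the tissue inhibitors of metalloproteinases (TIMPs), the ADAM proteases and the ADAMTS proteases of mouse brown adipocytes. Members were chosen by gene symbol alone: Mmp followed by a number, Timp1 to Timp4, Adam followed by a number, or Adamts followed by a number, with a letter allowed after the number of an Mmp or Adam gene. This gave 80 of the 45706 genes in the deposited table, with 79 symbols, since Mmp27 has 2 entries. They comprised 24 MMPs, 4 TIMPs, 33 ADAMs and 19 ADAMTS proteases.

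Total RNA came from BMC, an immortalised line of murine brown preadipocytes that were differentiated into brown adipocytes and used on day 7. All 18 libraries share this line and the same differentiation, begun with insulin, triiodothyronine, dexamethasone, indomethacin and isobutylmethylxanthine. They form 3 groups of 6 by label: not induced (0 h), and 4 h or 24 h after induction with 1 µM norepinephrine, the sympathetic transmitter that starts lipolysis in brown fat. No vehicle-treated library at 4 h or 24 h was analysed here. The titles number the libraries of each group 1 to 6. The labels give the same batch to all and leave unsaid whether the 6 are independent cultures, so a p-value here reflects variation among libraries that could be purely technical.

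MMPs are zinc endopeptidases, made as inactive proenzymes, that cut collagens and other proteins of the extracellular matrix. TIMPs block them by binding the active site. ADAMs are mostly membrane-anchored and release the outer parts of growth factors, cytokines and receptors from the cell surface, while the secreted ADAMTS enzymes cut proteoglycans or trim procollagen. In fat tissue this machinery remodels the matrix as fat cells form and enlarge.

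Promoter sequences of 4 members are given, from those with a RefSeq window. Mmp11 had the widest range between sets of libraries, Timp1 varied with it, Adamts1 was high where Mmp11 was low, and Mmp3 holds a match to the AP-1 motif. They were picked after the values were seen. Each runs 5′ to 3′ on the strand of its gene, from 250 bases before to 50 bases after the RefSeq transcription start (GRCm38.p6). Capitals mark exact matches, on either strand, to any of 4 motifs, where N is any base. Variant sites were not searched. TGANTCA is the motif of the factor AP-1. TGACGTCA is the response element of cyclic AMP. GGGCGG is known as the GC box. The TATA box was searched as TATAAA.
Mmp11, chr10:75932453-75932752, minus strand: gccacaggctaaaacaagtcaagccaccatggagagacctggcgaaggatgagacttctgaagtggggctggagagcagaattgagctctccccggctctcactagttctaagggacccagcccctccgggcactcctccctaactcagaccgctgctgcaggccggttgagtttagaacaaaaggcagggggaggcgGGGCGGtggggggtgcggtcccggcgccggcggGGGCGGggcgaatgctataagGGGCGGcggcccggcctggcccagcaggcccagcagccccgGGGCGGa
Timp1, chrX:20869916-20870215, plus strand: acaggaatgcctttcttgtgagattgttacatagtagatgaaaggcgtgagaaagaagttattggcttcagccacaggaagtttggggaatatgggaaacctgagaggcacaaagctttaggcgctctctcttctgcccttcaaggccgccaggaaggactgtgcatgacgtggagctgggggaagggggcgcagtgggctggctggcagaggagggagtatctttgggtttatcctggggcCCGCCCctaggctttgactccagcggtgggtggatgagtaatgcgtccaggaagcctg
Adamts1, chr16:85803064-85803363, minus strand: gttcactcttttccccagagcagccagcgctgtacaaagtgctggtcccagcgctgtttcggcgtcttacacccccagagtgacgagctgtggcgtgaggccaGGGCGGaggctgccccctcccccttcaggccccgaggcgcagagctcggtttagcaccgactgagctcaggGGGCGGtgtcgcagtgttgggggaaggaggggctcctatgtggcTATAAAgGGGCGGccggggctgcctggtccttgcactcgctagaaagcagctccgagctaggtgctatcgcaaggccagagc
Mmp3, chr9:7445572-7445871, plus strand: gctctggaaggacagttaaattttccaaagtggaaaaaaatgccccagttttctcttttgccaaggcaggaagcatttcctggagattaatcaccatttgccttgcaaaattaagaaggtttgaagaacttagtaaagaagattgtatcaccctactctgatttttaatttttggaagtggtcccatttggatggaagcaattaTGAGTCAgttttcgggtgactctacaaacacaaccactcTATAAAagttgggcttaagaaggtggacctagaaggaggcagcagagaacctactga
The Mmp11 window held 4 GC boxes, that of Timp1 held 1, that of Adamts1 held 3 and a TATA box, and that of Mmp3 held an AP-1 match and a TATA box. RefSeq windows were found for 50 of the 79 symbols, and 26 windows belonged to 23 of the 40 members with enough counts to test. Of those 26, 2 held TGANTCA, 0 held TGACGTCA, 18 held GGGCGG and 2 held TATAAA. Among all 32851 promoter windows of this length the shares were 7.81%, 1.79%, 35.7% and 13.6%. The 32851 were not limited to genes with enough counts, as the 26 were, so these shares come from unlike sets of genes. A match describes letters in the window and shows no binding, and a window without a match may still hold a variant site.

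Expected counts totalled between 7010742 and 26501223 per library. The library 24 h replicate 5 stood apart: it had the lowest total, the fewest genes with a count (16066, against 18151 or more elsewhere) and a TMM factor of 0.431, against 0.913 to 1.15 in the other 17. The members took 0.0737% of its counts and 0.139% to 0.216% of those of the others. For some of the results that it moves, the value without it is given too. Of the adipocyte markers, all 8 (Adipoq, Plin1, Fabp4, Cidec, Lipe, Pparg, Ucp1 and Cidea) passed the filter on low counts and summed to between 3016 and 4267 CPM (counts per 1000000 of the TMM-scaled library total), of which Fabp4 made up 1806 to 2882. Ucp1, the uncoupling protein that defines brown adipocytes, was low, from 1.08 to 18.01 CPM. Macrophage markers summed to between 2.90 and 4.23 CPM, with 3 of 8 at 0, and endothelial markers to between 0.663 and 1.84 CPM, with 1 of 6 at 0.

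Of the 80 members, 40 passed the filter, 22 had counts too low to test and 18 had no count in any library. The members without a count were Mmp1a, Mmp7, Mmp20, the second entry of Mmp27, Adam3, Adam6a, Adam6b, Adam7, Adam20, Adam24, Adam25, Adam26a, Adam26b, Adam29, Adam34, Adam39, Adamts18 and Adamts19. A count of 0 over all 18 libraries (338591719 counts) allows a level of up to 0.00886 CPM, which covers counting error only. The members below the filter were Mmp1b, Mmp8, Mmp10, Mmp12, Mmp13, Mmp17, Mmp21, Mmp24, Mmp25, the first entry of Mmp27, Timp4, Adam1b, Adam2, Adam5, Adam18, Adam21, Adam28, Adam32, Adam33, Adamts13, Adamts17 and Adamts20. Their sums over 18 libraries ran from 1 count (Mmp1b, Adam18, Adam28 and Adamts13) to 123 counts (Mmp17 and Adam5).

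By role, none of the 4 collagenases (Mmp1a, Mmp1b, Mmp8 and Mmp13) could be tested, with at most 22 counts in all for Mmp13, the main fibrillar collagenase of rodents. Both gelatinases passed (Mmp2 and Mmp9), as did 2 of 3 stromelysins (Mmp3 and Mmp11), 3 of 6 membrane-type MMPs (Mmp14, Mmp15 and Mmp16) and 3 of 4 TIMPs. Timp4, an inhibitor known from heart and fat, had 32 counts in all, between 0 and 0.195 CPM per library. Among ADAMs, 7 of 9 broadly expressed members and all 3 neural, catalytically inactive ones (Adam11, Adam22 and Adam23) passed, but only 3 of 21 known mainly from the testis and epididymis (Adam1a, Adam4 and Adam30). All 3 procollagen N-proteinases (Adamts2, Adamts3 and Adamts14) and 6 of 7 ADAMTS proteoglycanases passed.

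Levels per gene length, as RPKM (CPM divided by exon length in kilobases), placed Mmp11 highest by mean, with 62.4 ± 42.2 (SD over 18 libraries). That mean pools libraries that differed, from 11.4 to 127 RPKM. In every library numbered 1 or 4 Mmp11 lay below Adam9, Timp2 and Adam10, whose lowest values were 29.7, 20.3 and 24.1 RPKM. Mmp11, a stromelysin, is activated inside the cell by furin and is known as a brake on fat cell differentiation. Adam9 followed with 35.5 ± 3.62 RPKM, then Timp2 with 32.9 ± 11.1 and Adam10, the main sheddase of Notch, with 27.1 ± 2.09. Adamts1 had 17.96 ± 7.44, Adam12 had 17.4 ± 1.24, Adam17, the sheddase of tumour necrosis factor, had 12.8 ± 1.75 and Adam15 had 11.9 ± 1.66. Mmp11, Timp2 and Adamts1 varied most between libraries and the ADAMs of this group least. In the ADAMs named here the SD stayed small beside the mean, and neighbours in the order such as Adam9 and Timp2 overlapped within their spread.

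**Figure D1:**
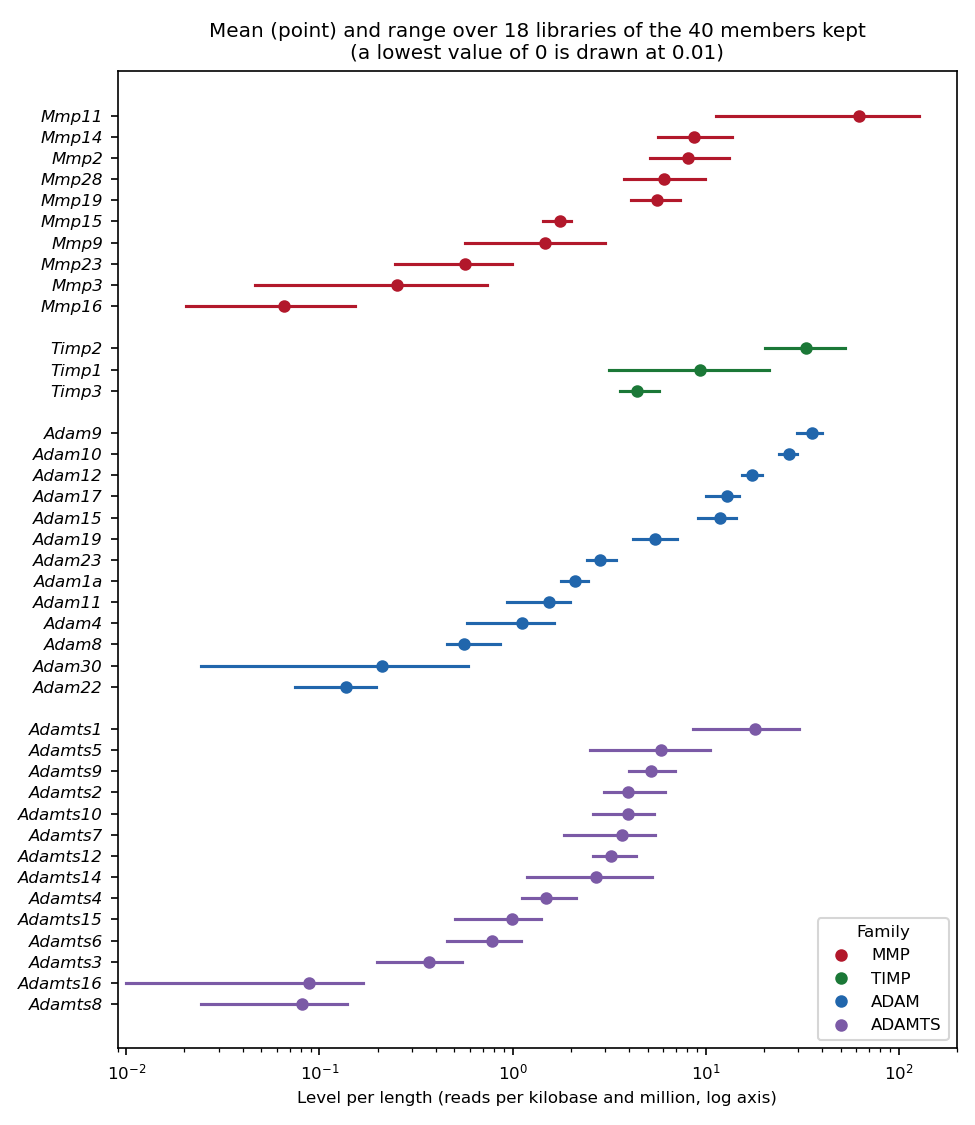
Level per length of the 40 members that passed the filter, in RPKM on a log axis, grouped by family. Points are means and lines the range over 18 libraries. Mmp11 has the highest mean, 62.4, and a range of 11.4 to 127, while Adam9, Adam10 and Adam12 have short lines.

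Between labelled times the members' mean levels differed little beside the spread between libraries. Of the 12 adrenergic response genes described below, 0 were called between labelled times in edgeR as well, though some were with library weights. Whether the labelled times match the norepinephrine treatment was not tested. At 4 h against 0 h, 0 of 40 members passed edgeR's quasi-likelihood test at an adjusted p of 0.05, and 0% of the 14788 genes tested did. An unadjusted p under 0.05 was reached by 2 members, Adam4 and Adam1a, against 1.17% of all genes. With the replicate number as a block, 11 members reached it, against 9.89% of all genes, and still 0 passed after adjustment. With limma-voom, the block and library weights, 12 did, against 13.5% of all genes, and 0 passed, against 0.223%. DESeq2 and limma-voom called 0 members as well, with 2 at an unadjusted p under 0.05 in each. The members' median log2 fold change was 0.05, against 0.01 for all genes, and single values ran from -0.59 (Adam4) to 0.30 (Adamts8).

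Adam4, an ADAM known from the testis (chromosome 12, 81419443 to 81421946, mm10), had the smallest p at 4 h. Its lowest, median and highest values were 2.17, 3.33 and 4.11 CPM at 0 h and 1.45, 2.09 and 2.78 CPM at 4 h. The groups overlapped, and the level at 4 h was lower within 5 of 6 replicate numbers. The estimate on the log2 scale was -0.59 (SE 0.20, edgeR adjusted p = 1.00), and with the replicate block -0.58 (SE 0.16, edgeR adjusted p = 0.238). Adam4 lies within the genes Cox16 and Gm20498.

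Adam1a, an ADAM of male germ cells (chromosome 5, 121518576 to 121545482), had 15.1, 17.7 and 18.4 CPM at 0 h and 13.3, 14.2 and 17.4 CPM at 4 h (lowest, median, highest). It was lower at 4 h within all 6 numbers, the only member of which this held, against 3.11% of all genes. The blocked estimate on the log2 scale was -0.21 (SE 0.06, edgeR adjusted p = 0.238). Its exons share 4779 bases with Gm42878 and 1805 bases with Mapkapk5 on the same strand, so its counts may include reads of those genes.

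Members higher at 4 h within all 6 numbers were Mmp14, Mmp2, Timp1, Timp2, Adamts4 and Adamts7, 6 of 40, against 3.54% of all genes. None of them passed the test. Adamts4, an aggrecanase (chromosome 1, 171250421 to 171260637), had 5.36, 6.05 and 8.40 CPM at 0 h and 6.52, 6.86 and 10.2 CPM at 4 h. The 2 groups overlapped widely. The estimate on the log2 scale was 0.25 (SE 0.16, edgeR adjusted p = 1.00), and 0.26 with the block (SE 0.08, edgeR adjusted p = 0.297). For Mmp14, the membrane-type enzyme that activates pro-Mmp2, the blocked log2 value was 0.15 (95% interval 0.03 to 0.27), and for Mmp2 it was 0.16 (0.01 to 0.30). For Timp1 it was 0.22 (-0.00 to 0.44), for Timp2 0.14 (0.00 to 0.28) and for Adamts7 0.14 (0.03 to 0.26). Preadipocyte and fibroblast markers moved alongside, their summed level being 1236 ± 285 CPM in the 0 h libraries and 1367 ± 395 CPM in those of 4 h (SD, 6 each). Col1a1 and Vim made up most of that level. The part of these markers in the members' values was not tested.

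At 24 h against 0 h, 0 of 40 members passed (edgeR, 0% of all genes), and 0 had an unadjusted p under 0.05, against 1.07% of all genes. With the block, 9 did, against 7.80%, and 0 passed after adjustment, against 0.00676% of all genes. With limma-voom, the block and library weights, 9 did, against 9.68%, and 0 passed, against 0.392%. DESeq2 and limma-voom called 0 members, with 0 at an unadjusted p under 0.05. The median log2 fold change was 0.03 (all genes -0.00), from -0.20 for Mmp28 to 0.46 for Adam30.

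Timp1, the inducible secreted inhibitor (chromosome X, 20870166 to 20874735), came closest in the blocked model. It had 2.81, 8.61 and 10.5 CPM at 0 h and 3.60, 8.91 and 18.9 CPM at 24 h. The medians lay close together, and the highest value belonged to 24 h replicate 5. Its blocked estimate on the log2 scale was 0.36 (SE 0.11, edgeR adjusted p = 0.306), with a higher level in 5 of 6 numbers. Without 24 h replicate 5 it was 0.29 (95% interval 0.08 to 0.50, edgeR adjusted p = 0.544). Timp2, Adamts5 and Adam30 were higher at 24 h within all 6 numbers (against 2.55% of all genes) and Mmp28 was lower (against 1.97%). Blocked log2 values were 0.21 for Timp2 (95% interval 0.07 to 0.35, and 0.14 without 24 h replicate 5, 0.07 to 0.21), 0.12 for Adamts5 (0.03 to 0.20), 0.54 for Adam30 (0.03 to 1.04) and -0.16 for Mmp28 (-0.26 to -0.05). Preadipocyte and fibroblast markers summed to 1368 ± 333 CPM at 24 h, and all 9 tested had a positive blocked value, with a median of 0.14 on the log2 scale. Their part in these values was not tested.

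At 24 h against 4 h, 0 of 40 members passed (edgeR, 0% of all genes) with or without the block. An unadjusted p under 0.05 was reached by 1 member, Adam4, against 0.926% of all genes, by 6 with the block, against 5.12%, and by 7 with limma-voom, the block and library weights, against 9.22%, with 0 passing. DESeq2 and limma-voom called 0, with 1 unadjusted in each. The median log2 fold change was -0.00, from -0.27 for Adam22 to 0.52 for Adam30. Mmp28 was lower at 24 h within all 6 numbers (against 2.15% of all genes), and 0 members were higher within all 6 (against 1.37%).

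The 3 comparisons share libraries, so their counts do not support each other. In no comparison did any member's groups separate: libraries not overlapping were found for 0 of 40 members, against 0.0676% of all genes at 4 h, 0.0406% at 24 h against 0 h and 0% at 24 h against 4 h. A simulation of 24 h against 0 h changed 200 of 14788 genes, drawn at random, by 1 on the log2 scale. The model without a block recovered 71.0% with 0 false calls and the blocked model 86.5% with 10. The simulated counts took their spread from a blocked fit to these data. These shares do not give the recovery for the members or for smaller changes. In the blocked model all 40 members had 95% intervals within 1 on the log2 scale at 4 h, and 39 did at 24 h against 0 h, Adam30 being the exception. Changes within a member's interval remain possible, so small changes are not excluded.

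**Figure D2:**
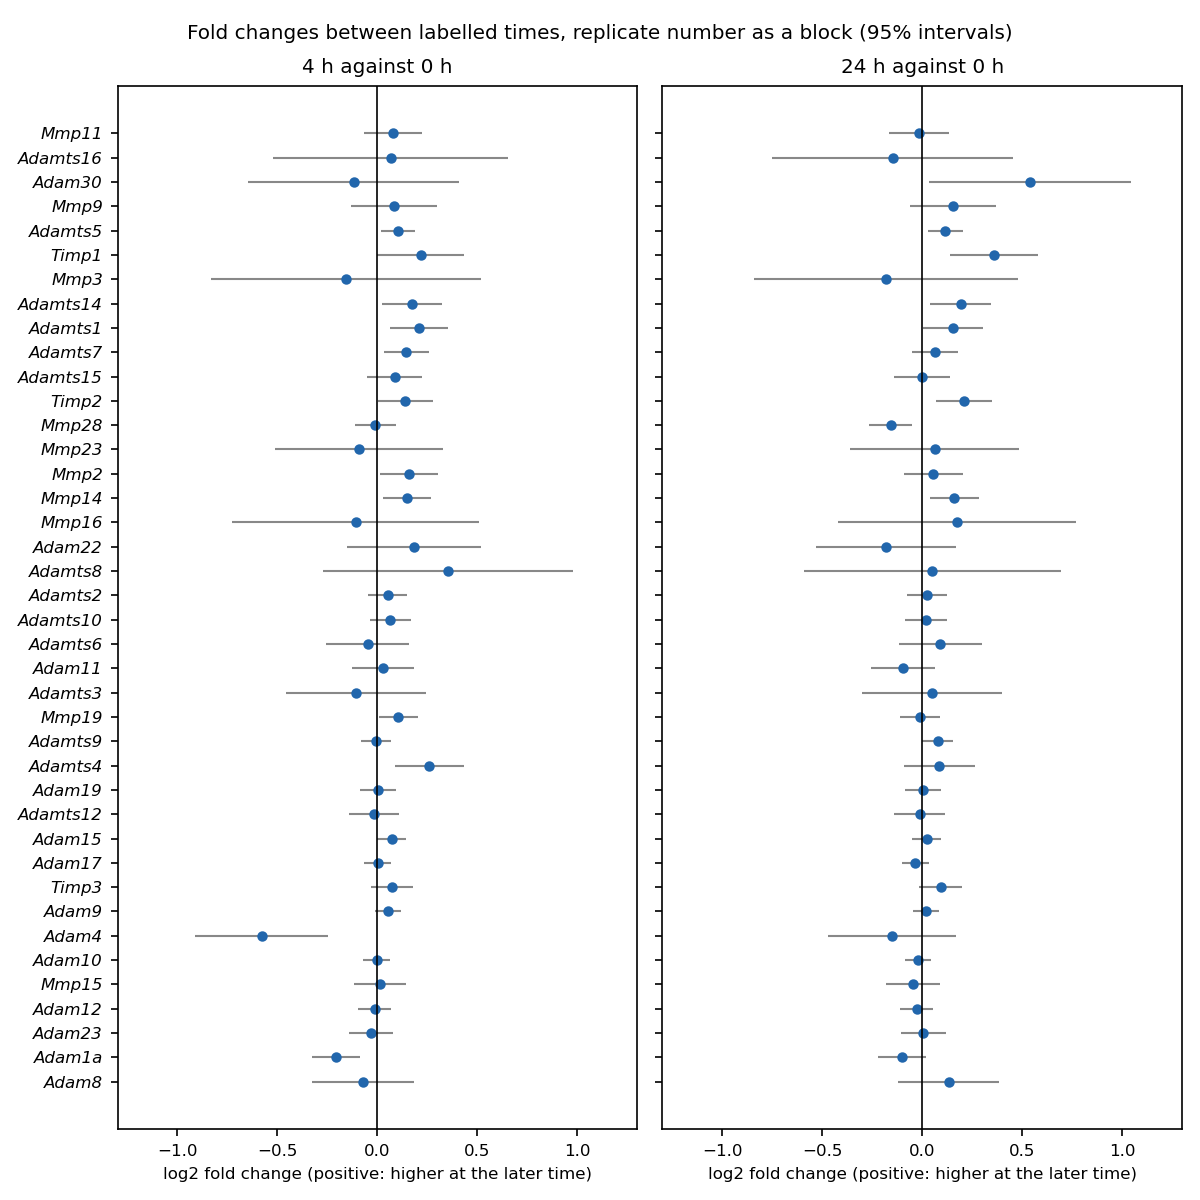
Log2 fold changes of 40 members at 4 h and at 24 h against 0 h from the edgeR model with the replicate number as a block. Points are estimates and lines 95% intervals. Nearly all points lie within 0.5 of 0, with Adam4 at -0.58 for 4 h and Adam30 at 0.54 for 24 h outside that range, and none passed after adjustment.

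Summed per family, mean levels were also close between times. In the order 0 h, 4 h and 24 h, MMPs summed to 92.5 ± 45.1, 101 ± 52.2 and 92.3 ± 43.5 RPKM (SD, 6 libraries each). TIMPs had 42.3 ± 13.5, 46.9 ± 15.1 and 50.7 ± 16.3 RPKM, ADAMs 119 ± 7.08, 120 ± 7.17 and 118 ± 9.45, and ADAMTS proteases 47.8 ± 9.26, 52.2 ± 11.3 and 51.4 ± 9.04. Within replicate numbers, the 4 h library exceeded its 0 h partner in 6 of 6 for the MMP, TIMP and ADAMTS sums, by a mean of 8.24, 4.60 and 4.39 RPKM, and in 3 of 6 for the ADAM sum. At 24 h against 0 h the MMP, TIMP, ADAM and ADAMTS sums were higher in 4, 5, 2 and 5 of 6. The largest TIMP rise, 26.6 RPKM beside a mean of 8.44, was that of number 5, whose 24 h library stood apart. The sums were not tested.

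Levels followed the replicate number in the titles. With time in the model, 33 of 40 members differed between the 6 numbers (edgeR F-test, adjusted p under 0.05), against 72.5% of all genes tested. The number accounted for a median of 90.1% of a member's variance in log2 CPM, against 72.0% for all genes, and time for 2.505%, against 3.78%. The 7 members that did not pass were Mmp16, Adam1a, Adam4, Adam8, Adam23, Adamts3 and Adamts8. Without 24 h replicate 5, 36 members passed.

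Numbers 3 apart had like levels. The median absolute log2 difference between partner numbers was 0.04 for 4 against 1, 0.11 for 5 against 2 and 0.06 for 6 against 3. Over all genes these medians were 0.06, 0.09 and 0.09. No member differed by 1 or more. The sets 1+4, 2+5 and 3+6 were taken from earlier results of these data, so differences between them are given as descriptions, with no test. A member is called apart when the 6 and 6 libraries do not overlap in log2 CPM and their means differ by at least 1. The mean log2 levels of 12 of 40 members (30.0%) spanned at least 1 over the 3 sets, against 11.7% of all genes, and the median span was 0.75, against 0.38. The highest mean lay in 3+6 for 21 members, in 1+4 for 10 and in 2+5 for 9.

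Against 1+4, set 2+5 had 6 members apart (4.73% of all genes were). Mmp11, Timp1 and Adamts16 were higher (2.15% of all genes) and Adamts1, Adamts15 and Adam30 lower (2.58%). Against the same libraries, set 3+6 had 9 apart (5.86% of all genes), with Mmp3, Mmp9, Mmp11, Timp1, Timp2, Adamts7, Adamts14 and Adamts16 higher (3.01%) and Adam30 lower (2.85%). Between 3+6 and 2+5 there were 3 apart (4.06%), Mmp9 and Adamts5 higher in 3+6 (2.29%) and Adam30 lower (1.78%). Without 24 h replicate 5 the count for 3+6 against 2+5 was 7, with Mmp3, Mmp23, Mmp28 and Adamts14 added. Libraries not overlapping at any size of difference were found for 19, 27 and 24 of 40 members in the 3 comparisons, against 35.3%, 38.6% and 29.8% of all genes. The difference had the same sign in numbers 1 to 3 as in numbers 4 to 6 for 36, 37 and 37 members. As the sets were taken from earlier results of these data, this agreement is no replication. The share over all genes was not computed.

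**Figure D3:**
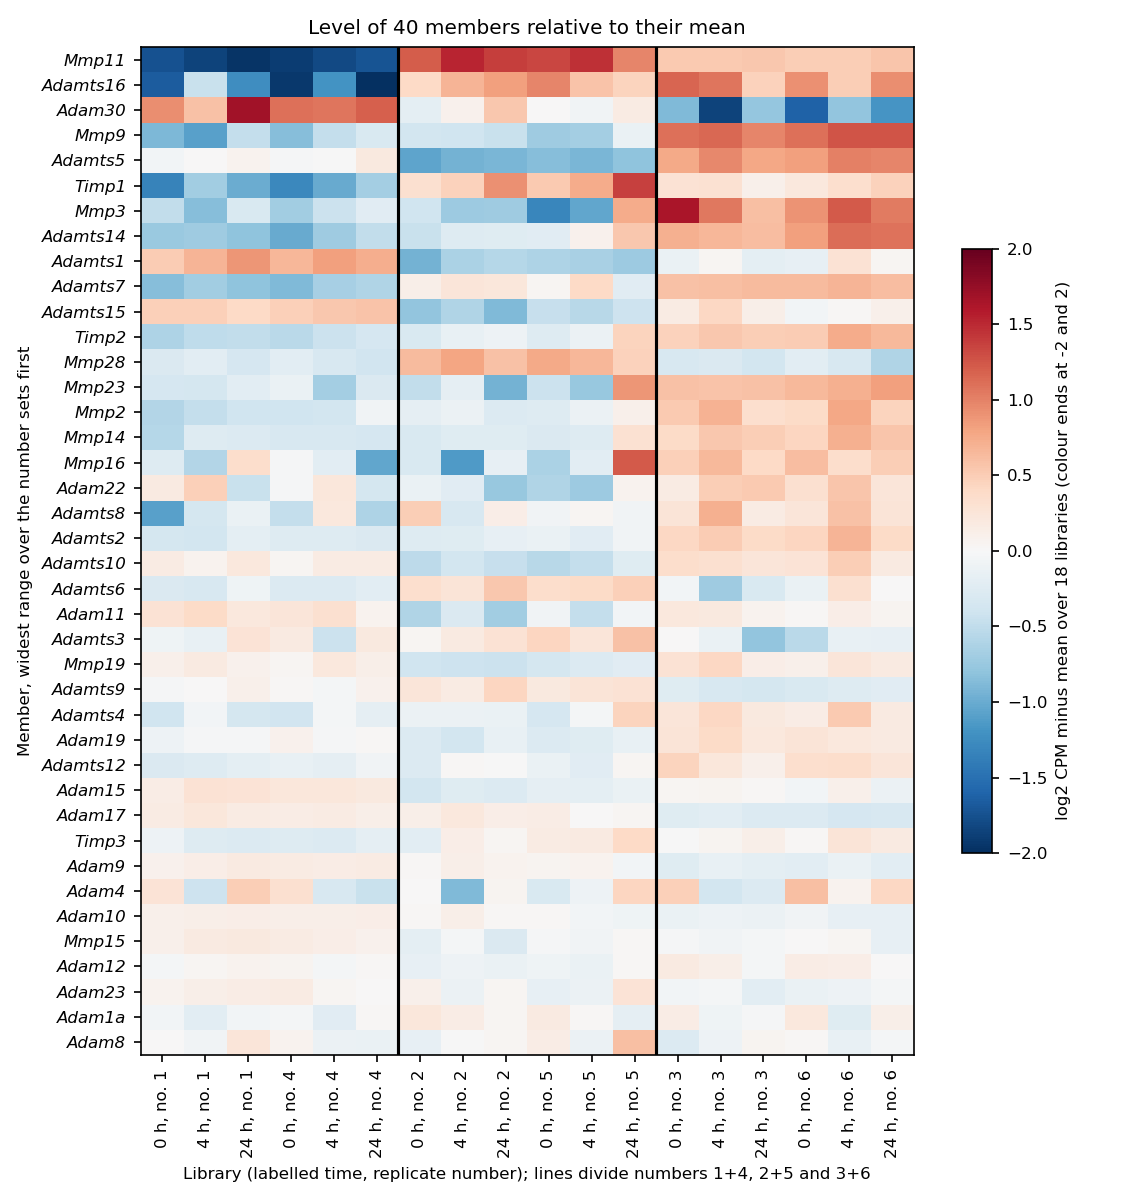
Log2 CPM of 40 members in 18 libraries, each minus its mean, with colours ending at -2 and 2. Columns are libraries ordered by replicate number, black lines divide the sets 1+4, 2+5 and 3+6, and rows are ordered by the span over sets. Blocks of colour follow the sets and not the labelled times, from Mmp11 at the top, with a span of 3.14, to Adam8 at the bottom, with 0.16.

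Among the MMPs, Mmp11 (chromosome 10, 75923222 to 75936496), whose RefSeq promoter window is shown above, differed most. Its values at 0 h, 4 h and 24 h were 36.7, 34.0 and 31.6 CPM for number 1 and 33.1, 35.0 and 37.4 CPM for number 4. They were 284, 353 and 321 CPM for number 2 and 312, 338 and 242 CPM for number 5. They were 177, 177 and 180 CPM for number 3 and 173, 174 and 181 CPM for number 6. The 3 sets did not overlap, and 2+5 was highest at every labelled time. Set means were 34.6 ± 2.19, 309 ± 40.2 and 177 ± 3.04 CPM for 1+4, 2+5 and 3+6 (SD, n = 6). On the log2 scale 2+5 exceeded 1+4 by 3.14, or 8.83-fold, and the number explained 99.3% of the variance (edgeR adjusted p = 1.07e-12). Its exons share 155 bases with Chchd10 on the other strand. The RefSeq window, 75932453 to 75932752, lies inside the GENCODE bounds of this minus-strand gene, whose 5′ end there is 75936496.

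Of the gelatinases, Mmp9 (chromosome 2, 164940780 to 164955850) was high in 3+6 alone. Its lowest, median and highest values were 2.00, 2.72 and 3.50 CPM in 1+4, 2.63, 3.21 and 3.98 in 2+5, and 8.68, 9.62 and 10.6 in 3+6. The first 2 sets overlapped and 3+6 lay above both, 3.54-fold over 1+4 and 3.03-fold over 2+5. Mmp2 (chromosome 8, 92827291 to 92853420), the gelatinase of mesenchymal cells, had medians of 19.7, 23.5 and 36.5 CPM. Its libraries of 3+6, from 32.9 to 44.3 CPM, lay above those of both other sets, 1.88-fold over 1+4, which is under the size that counts as apart.

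Mmp14 (chromosome 14, 54431612 to 54445364) had 33.6, 39.8 and 41.7 CPM in 1+4, 40.4, 41.9 and 61.3 in 2+5, and 64.8, 71.6 and 81.5 in 3+6 (lowest, median, highest). It was highest in 3+6, 1.82-fold over 1+4, and the 61.3 CPM of 2+5 belonged to 24 h replicate 5. Mmp15, another membrane-type enzyme (chromosome 8, 95352268 to 95375080), varied least of the MMPs, with medians of 10.5, 9.14 and 9.31 CPM and a span of 1.18-fold. Both passed the F-test over replicate numbers, with an edgeR adjusted p of 1.03e-09 for Mmp14 and 0.0134 for Mmp15.

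The next members, down to Mmp19, were picked after their values were seen. Mmp28, epilysin (chromosome 11, 83440768 to 83463071), had medians of 17.9 CPM in 1+4, 34.8 in 2+5 and 17.8 in 3+6. The libraries of 2+5, from 30.5 to 38.4 CPM, did not overlap those of either other set, and 3+6 was 2.00-fold lower. Mmp3, a stromelysin (chromosome 9, 7445822 to 7455975), had medians of 0.231, 0.177 and 0.847 CPM. It was highest in 3+6, but 24 h replicate 5, with 0.663 CPM, overlapped that set. Mmp19 had medians of 20.9, 14.98 and 22.4 CPM and was lowest in 2+5, with no overlap.

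Of the inhibitors, Timp1 followed Mmp11 in rank order of the sets. It had 2.81, 3.58 and 4.48 CPM in 1+4, 9.07, 11.3 and 18.9 in 2+5, and 7.82, 8.89 and 9.99 in 3+6 (lowest, median, highest). Set 1+4 lay below both others, 3.30-fold under 2+5 and 2.43-fold under 3+6, while 2+5 and 3+6 overlapped. Within 2+5 the 18.9 CPM belonged to 24 h replicate 5 and the other 5 libraries had at most 13.7 CPM. The edgeR adjusted p over numbers was 2.14e-10. Timp1 lies within an intron of Syn1, and reads from Syn1 RNA cannot be told apart if the strand was not used in counting.

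Timp2 (chromosome 11, 118301069 to 118355740), which binds pro-Mmp2 and takes part in its activation by Mmp14, had 78.9, 85.8 and 96.4 CPM in 1+4, 98.7, 111 and 165 in 2+5, and 168, 175 and 204 in 3+6. The 3 sets did not overlap, and 3+6 exceeded 1+4 2.08-fold. Timp3, the matrix-bound inhibitor that also blocks Adam17 (chromosome 10, 86300372 to 86349506), had medians of 29.7, 39.4 and 37.7 CPM. Its span was 1.27-fold, with an edgeR adjusted p over numbers of 1.74e-05. Its exons share 1733 bases with Syn3 on the other strand.

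The balance of the family sums differed between sets. MMPs summed to 39.1 ± 1.31 RPKM in 1+4, 142 ± 13.1 in 2+5 and 104 ± 2.61 in 3+6, and TIMPs to 30.1 ± 2.14, 48.7 ± 10.7 and 61.1 ± 4.46 (SD, n = 6). The ratio of the sums was 1.302 ± 0.0529, 3.03 ± 0.652 and 1.71 ± 0.0957. Mmp11 made up 31.9 ± 1.74% of the MMP sum in 1+4, 77.8 ± 3.50% in 2+5 and 61.2 ± 1.81% in 3+6. The MMP sum and the ratio thus largely followed this gene. A ratio without Mmp11 was not computed, so these values do not describe the balance of the other MMPs with the TIMPs. In 2+5 the lowest ratio, 1.77, was that of 24 h replicate 5, and the other 5 libraries had 3.29 ± 0.229. Without it the MMP sum of 2+5 was 146 ± 10.1 RPKM and the TIMP sum 44.6 ± 3.87. ADAMs summed to 129 ± 2.25, 117 ± 2.25 and 112 ± 2.32 RPKM, and ADAMTS proteases to 55.1 ± 3.22, 38.3 ± 2.02 and 58.0 ± 4.57. These are RNA levels and say nothing of the amount of active enzyme.

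**Figure D4:**
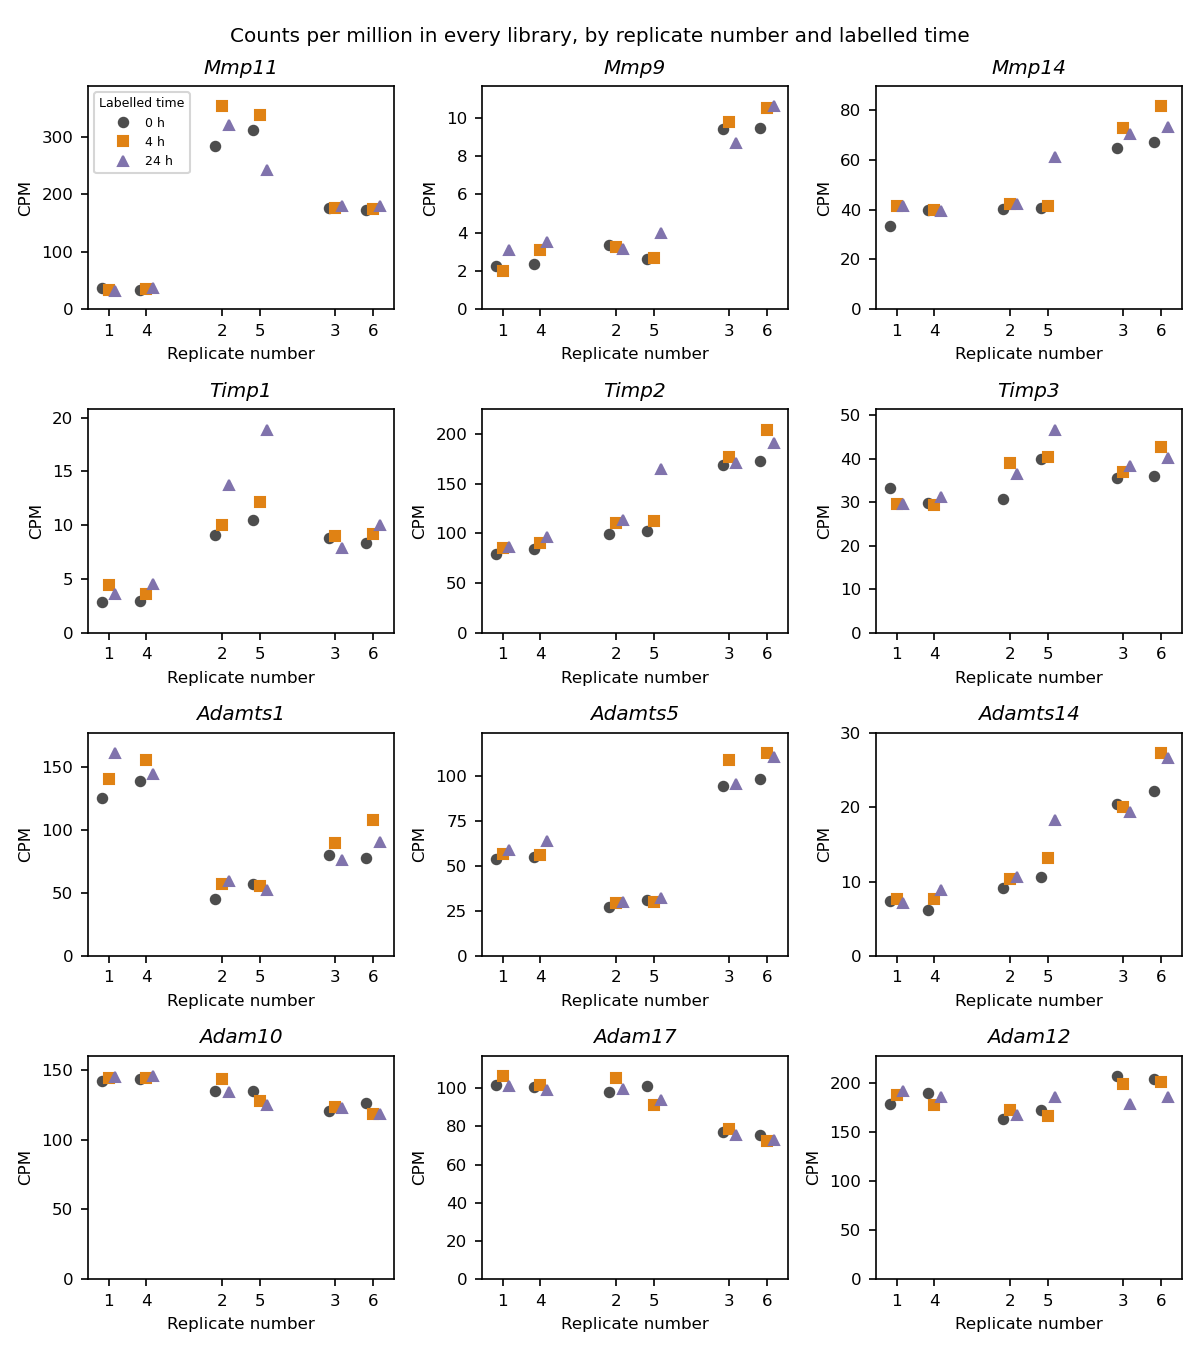
Level in CPM of 12 members in each of 18 libraries, by replicate number on the x axis (partner numbers side by side) and labelled time (circles 0 h, squares 4 h, triangles 24 h), with y axes from 0. For Mmp11 the libraries of 1+4 lie between 31.6 and 37.4 and those of 2+5 between 242 and 353, while the points for Adam10, Adam17 and Adam12 lie close together.

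The sheddases spanned little. Adam10 (chromosome 9, 70678997 to 70780229) had 142, 144 and 146 CPM in 1+4, 125, 135 and 143 in 2+5, and 118, 122 and 127 in 3+6. The level was lowest in 3+6, though above that of 2+5 when libraries were scaled by their totals, and the span was 1.19-fold, and the F-test over numbers passed (edgeR adjusted p = 1.33e-05). Adam17 (chromosome 12, 21323509 to 21373632) had medians of 101, 98.7 and 75.4 CPM, and 3+6 lay 1.35-fold below 1+4 with no overlap. Adam9 (chromosome 8, 24949611 to 25016927) had medians of 162, 151 and 126 CPM, a span of 1.26-fold, and with library totals 3+6 was likewise above 2+5. For Adam10 and Adam9 the comparison by library totals includes 24 h replicate 5, a library of 2+5 with a TMM factor of 0.431. It was not made without that library.

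Adam12, a protease of mesenchymal cells and preadipocytes (chromosome 7, 133883199 to 134232146), had medians of 187, 169 and 200 CPM, with overlapping sets and a span of 1.14-fold. Adam15 (chromosome 3, 89338542 to 89349996) was lowest in 2+5, with medians of 84.9, 62.6 and 73.8 CPM and no overlap between sets. Adam8, known from leukocytes (chromosome 7, 139978932 to 139992562), had medians of 2.52, 2.61 and 2.46 CPM and the narrowest span of all, 1.12-fold. Adam23 (chromosome 1, 63445891 to 63596276) had medians of 54.2, 49.4 and 48.2 CPM. Neither Adam8 nor Adam23 passed the F-test over numbers (edgeR adjusted p = 0.780 and 0.0505).

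Adam30 is an ADAM known from the testis, named here because of its values (chromosome 3, 98160630 to 98164169). It had 0.921, 1.35 and 2.07 CPM in 1+4, 0.490, 0.600 and 0.888 in 2+5, and 0.0856, 0.233 and 0.298 in 3+6. The 3 sets did not overlap, and 3+6 was 4.85-fold below 1+4. At these levels a library holds few counts, and the prior count of 2 draws such fold values toward 1.

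The ADAMTS proteoglycanases differed in opposite directions. Adamts1, which cuts versican and aggrecan (chromosome 16, 85793827 to 85803113), had 125, 142 and 161 CPM in 1+4, 45.5, 56.3 and 59.2 in 2+5, and 76.2, 84.9 and 108 in 3+6. The sets did not overlap, and 2+5, the highest set for Mmp11, was 2.64-fold below 1+4. Adamts5, the main aggrecanase of mouse cartilage (chromosome 16, 85856173 to 85901828), had 54.0, 56.3 and 63.9 CPM in 1+4, 27.1, 29.8 and 32.1 in 2+5, and 94.7, 104 and 113 in 3+6. It was 3.46-fold higher in 3+6 than in 2+5, and the number explained 99.0% of its variance (edgeR adjusted p = 1.52e-19). Adamts4 had medians of 5.86, 6.52 and 8.26 CPM, a span of 1.43-fold. Adamts15, a versican-cutting enzyme picked after its values were seen, had medians of 13.7, 6.54 and 10.6 CPM and was 2.16-fold lower in 2+5 than in 1+4.

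Of the procollagen N-proteinases, Adamts14 (chromosome 10, 61197112 to 61273438) had 6.17, 7.52 and 8.85 CPM in 1+4, 9.16, 10.6 and 18.2 in 2+5, and 19.3, 21.3 and 27.3 in 3+6. The 3 sets did not overlap, and 3+6 was 2.99-fold above 1+4. The 18.2 CPM belonged to 24 h replicate 5. Adamts2, the main enzyme of this step, had medians of 29.8, 31.5 and 48.3 CPM and Adamts3 of 2.03, 2.36 and 1.73 CPM. Adamts7, known for cutting cartilage oligomeric matrix protein, had medians of 12.7, 24.2 and 33.0 CPM, with no overlap and a 2.59-fold excess of 3+6 over 1+4. Adamts16 had medians of 0.105, 0.762 and 0.956 CPM, with 1 library of 1+4 at 0, so its 5.01-fold span depends on the prior count. These last 4 were picked after their values were seen.

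Other genes of the pathway were read from lists. None of those with enough counts passed between times in edgeR, with or without the block. With limma-voom, the block and library weights, Fos and Fosb of the adrenergic response list rose at 4 h (0.223% of all genes passed), by 0.45 and 0.46 on the log2 scale (limma adjusted p = 0.00297 and 0.00559). In the same model Fos, Fosb, Nr4a1 and the fibroblast marker S100a4 rose at 24 h against 0 h (0.392% of all genes passed), by 0.62, 0.72, 0.55 and 0.45. Of the genes that activate proteases (proprotein convertases and the plasminogen system), 9 of 11 could be tested and 9 differed between numbers, where 72.5% of all genes did, a share against which the counts of the other lists are also to be read. Furin, which activates Mmp11, Mmp14 and many ADAMs, had medians of 75.2, 112 and 79.6 CPM in 1+4, 2+5 and 3+6. Plaur, the urokinase receptor, was 3.04-fold higher in 2+5 than in 1+4.

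Of the trafficking genes and cofactors 13 of 14 were tested and 13 differed between numbers. Bsg (basigin), an inducer of MMPs, was 3.74-fold lower in 3+6 than in 1+4, with 591 ± 51.4 CPM (SD, n = 6). Of the other inhibitors and ADAMTS-like genes 10 of 15 were tested and 8 differed. Reck, a membrane-bound inhibitor of MMPs, had medians of 5.96, 3.81 and 8.36 CPM, and Adamtsl3 was 3.62-fold higher in 3+6 than in 1+4. Of 29 substrates of these proteases 22 were tested and 20 differed. In 2+5 against 1+4, 4 of the 22 were apart and higher (2.15% of all genes) and 1 apart and lower (2.58%). In 3+6 against 1+4 the counts were also 4 (3.01%) and 1 (2.85%). A positive difference was found for 18 of 22 in each comparison, against 48.8% and 50.5% of all genes. The lists share genes: Cd44 is also among the cofactors, and Dlk1 and Col1a1 are also among the fibroblast markers. Vcan (versican), cut by Adamts1, Adamts4, Adamts5 and Adamts15, had medians of 186, 411 and 311 CPM, the reverse order of Adamts1 and Adamts15. Adamts4 and Adamts5 were highest in 3+6 and did not have that reverse order. Adamts9, another ADAMTS proteoglycanase, was highest in 2+5 as Vcan was, with mean log2 CPM of 6.30, 6.54 and 5.99. Col1a1, a collagen chain trimmed by Adamts2 and Adamts14, had medians of 429, 516 and 837 CPM, and Fbn1 of 137, 201 and 316 CPM.

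Markers of other cells and of the adrenergic response moved with the sets. Preadipocyte and fibroblast markers summed to 969 ± 44.8 CPM in 1+4, 1322 ± 177 in 2+5 and 1681 ± 157 in 3+6 (SD, n = 6). Col1a1 and Vim made up most of this sum. Of the 12 markers, 9 were above the filter. In 3+6 against 1+4, 4 were apart and higher (3.01% of all genes), and in 2+5 against 1+4, 0 were (2.15%). The highest sum in 2+5, 1652 CPM, was that of 24 h replicate 5. Adipocyte markers summed to 4196 ± 67.2, 3295 ± 168 and 3705 ± 308 CPM, a sum made up mostly of Fabp4 (2767 ± 82.3, 1949 ± 108 and 2183 ± 213 CPM). Single adipocyte markers differed in direction: in 3+6 against 1+4 Adipoq was 1.74-fold higher, while Ucp1 was 8.54-fold lower and Plin1 2.16-fold lower. Smooth muscle markers summed to 30.4 ± 1.06, 40.6 ± 8.32 and 71.9 ± 8.25 CPM. In 3+6 against 1+4 Acta2 was 2.67-fold and Tagln 3.68-fold higher, the log2 differences of Myh11 and Des were -0.39 and -0.24, and 2 of the 4 tested differed between numbers. The 12 adrenergic response genes summed to 679 ± 104, 252 ± 11.8 and 275 ± 4.67 CPM, and 11 of 12 differed between numbers. Of these, Fos, Fosb, Nr4a1 and Dio2 were apart and lower in 2+5 against 1+4, and Pde4d was apart and 2.53-fold higher. In 3+6 against 1+4, 6 were apart and lower, among them Ucp1, which is also in the adipocyte list. Adrb3 was apart and 2.16-fold higher. Fos, an immediate early gene, had 118, 189 and 226 CPM in 1+4 (lowest, median, highest), at most 7.55 CPM in 2+5 and at most 4.67 CPM in 3+6. By labelled time in the order 0 h, 4 h and 24 h, the same list summed to 366 ± 156, 412 ± 225 and 428 ± 269 CPM. The part of these markers in the members' differences was not tested, and in such bulk samples fewer cells of a type and less RNA per cell cannot be told apart.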

How the data were processed

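The deposited values are expected counts that salmon estimated for each gene, in a merged table of 18 libraries, per the labels. Build mm10, limma and edgeR are named per the submitters' processing notes. Which salmon version, annotation and strand option were used is not given in the sources used here. Among values above 0, 27.4% were not whole.

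Counts were rounded, filtered by filterByExpr (minimum count 10, minimum total 15; 14788 genes with at least 99.9% of each library's counts) and normalised with TMM factors (trimmed mean of M values). Log2 CPM used a prior count of 2. RPKM used union exon lengths of GENCODE M21, which also gave positions (mm10). Times and replicate numbers were compared in edgeR with its quasi-likelihood test (robust option, two-sided, all 18 libraries) with Benjamini-Hochberg adjustment over all genes and a threshold of 0.05. Tools were edgeR 4.0.16, DESeq2 1.42.0 and limma 3.58.1 under R 4.3.3, and matplotlib 3.10.9 under Python 3.11.15. Detection was tested on simulated counts.

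Libraries of the same number were alike. Across genes, a library's deviation from its time mean correlated at 0.297 to 0.718 with that of each same-numbered library (18 pairs, median 0.590). Numbers 3 apart were nearly as alike, at 0.237 to 0.688 with a median of 0.569, and other numbers had a median of -0.270. The likeness was thus hardly greater within a number than within a set of numbers. Only the titles give these numbers. Alternatives were a replicate block, DESeq2, limma-voom, other scalings, no filter, another prior count or difference, and leaving out each library. Members and lists were chosen with earlier results of these data known. Members named are 12 fixed genes, the 8 highest per length, the 3 smallest p per comparison of times and the 5 widest and 5 narrowest over sets among those with a mean of at least 1 CPM. Others were named after their values were seen. A result for 1 gene of the lists is not reported here.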

Additional observations from a re-analysis of the deposited data

Results flagged for a closer look

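In 6 of 126 groups of 6 libraries examined (named members with numbers 1+4, 2+5 or 3+6, or of a labelled time), the highest or lowest library lay farther from its neighbour than Dixon's 95% critical value allows. Chance gives this in about 1 of 20 groups when values are independent and share 1 normal spread. That share does not apply directly here: groups of a labelled time mix 3 sets that differ, and the members share libraries. All 6 lay in groups formed by replicate number. Of the 6, 4 were 24 h replicate 5, the library with the lowest total, against the other libraries of 2+5. It had 165 CPM of Timp2 (others 98.7 to 114), 61.3 CPM of Mmp14 (others 40.4 to 42.3), 9.61 CPM of Adamts4 (others 5.58 to 6.88) and 3.98 CPM of Adam8 (others 2.30 to 2.88). In 1+4, 24 h replicate 4 had 24.7 CPM of Mmp2 (others 17.3 to 20.1) and 0 h replicate 1 had 33.6 CPM of Mmp14 (others 39.3 to 41.7).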

How the results depend on the processing

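The count of members called between times was 0 in all 3 comparisons with the replicate block, and also with DESeq2, limma-voom, limma-voom using library weights and the block (an alternative chosen after seeing the data), scaling by size factors or by library totals, no filter, without each library in turn (range 0 to 0), and with the block but without 24 h replicate 5 (also chosen after seeing the data). The block changed no other call. The count over replicate numbers was 32 with DESeq2, 35 without the time term, 33 with size factors, 26 with library totals, 35 of 62 without the filter, and 33 to 36 without each library. Members apart were 13, 17 and 17 where a difference of 0.5 sufficed, for 2+5 against 1+4, 3+6 against 1+4 and 3+6 against 2+5. With library totals the last was 9, and the first 2 were 6 and 13. Without each library the counts were 5 to 6, 9 to 10 and 3 to 7, the 7 without 24 h replicate 5. Library totals moved the median of all genes by more than 0.1: it became -0.17 at 24 h against 0 h and -0.16 at 24 h against 4 h, and -0.17, 0.16 and 0.32 between sets. With them 16 log2 values of named members turned negative: at 4 h Adam17 -0.0103, at 24 h against 0 h Mmp2 -0.0837, Timp3 -0.0847, Adamts4 -0.0362, Adam9 -0.16, Adam15 -0.14, Adam8 -0.0295 and Adam23 -0.16, and at 24 h against 4 h Mmp14 -0.14, Timp1 -0.0172, Timp2 -0.11, Timp3 -0.17, Adamts5 -0.0998, Adamts14 -0.0955, Adam1a -0.0481 and Adam23 -0.12. Between sets they turned the sign for Adam8 in all 3 comparisons and, in 3+6 against 2+5, for Timp3 (0.31), Adam1a (0.27), Adam9 (0.0886), Adam10 (0.19) and Adam23 (0.22). None of these was called or apart, and the cause was not tested. The values with library totals include 24 h replicate 5 and were not computed without it. Members with a few counts per library, such as Adam30, Adamts16 and Mmp3, are limited by depth.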
